A study of Mus musculus with 3 samples.

Results

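Potassium channels let potassium ions leave or enter a cell along their gradient, and so set the resting potential, end the action potential and fix how fast a neuron can fire again. Voltage-gated channels open on depolarisation, inward rectifiers pass current best near rest, tandem pore channels leak at all potentials, and calcium- and sodium-activated channels open after ion entry during activity. Auxiliary subunits bind the pore subunits and change their gating or transport. In the olfactory bulb, where interneurons are added from birth on, these channels shape the firing of mitral cells and of the granule and periglomerular cells that inhibit them.

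The peaks described here are those of a chromatin immunoprecipitation of Sp9, a zinc finger transcription factor of olfactory bulb interneurons, that the authors named for a potassium channel gene. They are all rows of the authors' list of shared peaks whose gene name is Kcn followed by letters and a closing number. This gave 134 of 19979 peaks (0.671%), named for 76 genes. The same name rule applied to a RefSeq gene table gave 92 protein-coding genes, so 16 family members had no peak. Long non-coding names such as Kcnd3os fall outside the rule, as does Kcne1l, an auxiliary subunit gene whose name ends in a letter.

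The study sequenced 2 Sp9 immunoprecipitation libraries, made with a homemade antibody, and 1 input library, made with no antibody. All 3 came from whole olfactory bulbs of CD1 mice on postnatal days 0 to 2, fixed in 1% formaldehyde for 10 min. The labels name no mutant allele and no treatment, and do not say whether the immunoprecipitations came from separate animals. The bulb holds many cell types, so strong binding in few cells and weak binding in many cannot be told apart. The list gives each peak 1 interval and 1 score and names no library for either. No error between replicates and no depth can therefore be given, and all comparisons below are descriptions without a test.

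The word linked is used below for the gene name that the authors wrote beside a peak. Neither the distance to that gene nor the feature hit (promoter, exon, intron) is in the list. The authors' score is a number with no stated formula that ranged from 80.01 to 3139.09 over the list, with a median of 210.06 and an upper quartile of 353.6. A peak at or above 210.06 is called above-median. Positions are in mm9.

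Sp factors are known to bind GC boxes, so the letters GGGCGG and their reverse complement CCGCCC were searched on both strands in the 250 bases before the annotated start sites of RefSeq genes (GRCm38.p6). The windows shown belong to the highest-scoring gene of each subfamily that the sequence table holds, and to Kcnmb4 and Kcnmb1, auxiliary subunits of the same channel of which the first had a linked peak and the second did not. Capitals mark each match. Because the table and the peaks are in different builds, no peak can be placed on these windows.
Kcnc1, voltage-gated, chr7:46396218-46396467 on the plus strand: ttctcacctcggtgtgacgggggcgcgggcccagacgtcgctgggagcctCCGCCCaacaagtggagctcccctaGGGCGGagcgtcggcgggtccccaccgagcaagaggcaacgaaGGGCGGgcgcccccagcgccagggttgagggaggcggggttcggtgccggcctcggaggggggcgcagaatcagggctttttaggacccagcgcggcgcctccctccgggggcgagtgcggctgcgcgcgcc
Kcnj12, inward rectifier, chr11:61065554-61065803 on the plus strand: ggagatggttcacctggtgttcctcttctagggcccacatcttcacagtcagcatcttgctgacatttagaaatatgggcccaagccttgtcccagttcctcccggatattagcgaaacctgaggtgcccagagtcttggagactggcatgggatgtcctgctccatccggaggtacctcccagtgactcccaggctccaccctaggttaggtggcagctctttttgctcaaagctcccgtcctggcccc
Kcnk12, tandem pore, chr17:87797995-87798244 on the minus strand: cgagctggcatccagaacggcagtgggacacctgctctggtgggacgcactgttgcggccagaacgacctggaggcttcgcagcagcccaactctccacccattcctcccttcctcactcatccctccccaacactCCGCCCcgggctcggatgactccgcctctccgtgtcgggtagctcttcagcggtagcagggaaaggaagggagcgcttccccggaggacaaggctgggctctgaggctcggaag
Kcnma1, calcium-activated, chr14:24004206-24004455 on the minus strand: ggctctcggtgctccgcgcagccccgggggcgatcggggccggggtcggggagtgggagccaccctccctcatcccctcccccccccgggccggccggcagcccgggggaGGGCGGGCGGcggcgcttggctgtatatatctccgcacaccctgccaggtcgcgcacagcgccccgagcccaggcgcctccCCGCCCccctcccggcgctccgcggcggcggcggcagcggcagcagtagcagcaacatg
Kcnab1, auxiliary, first of 3 annotated windows, chr3:64948962-64949211 on the plus strand: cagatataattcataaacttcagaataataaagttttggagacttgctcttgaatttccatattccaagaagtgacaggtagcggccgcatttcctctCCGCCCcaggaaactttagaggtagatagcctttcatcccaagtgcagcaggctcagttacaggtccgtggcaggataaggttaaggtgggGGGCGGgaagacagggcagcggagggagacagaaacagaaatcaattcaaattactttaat
Kcnmb4, auxiliary, with a linked peak, chr10:116473524-116473773 on the minus strand: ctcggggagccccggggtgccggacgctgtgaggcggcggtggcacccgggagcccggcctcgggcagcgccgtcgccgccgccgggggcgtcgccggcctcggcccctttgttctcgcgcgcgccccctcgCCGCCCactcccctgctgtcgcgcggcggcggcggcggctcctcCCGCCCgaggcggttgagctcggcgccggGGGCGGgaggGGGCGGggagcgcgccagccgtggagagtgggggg
Kcnmb1, auxiliary, without a linked peak, chr11:33962763-33963012 on the plus strand: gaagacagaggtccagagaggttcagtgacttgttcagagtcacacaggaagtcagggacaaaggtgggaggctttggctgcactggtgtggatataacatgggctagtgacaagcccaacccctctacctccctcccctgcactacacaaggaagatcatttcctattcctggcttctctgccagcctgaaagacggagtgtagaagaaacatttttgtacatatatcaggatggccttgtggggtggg

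Potassium channel genes had a linked Sp9 peak in 76 of 92 cases (82.6%, exact Clopper-Pearson interval at 95% from 73.3 to 89.7%), against 55.4% of all 21900 coding genes. An above-median peak was linked to 55 of them (59.8%), against 35.4% of coding genes. A peak in the upper quartile was linked to 31 (33.7%), against 19.2%. They had 1.46 peaks per gene, against 0.819 over all coding genes, and 34 of the 92 had 2 or more peaks, against 15.5% of coding genes. The intervals treat genes as independent and cover counting error only; genes are not biological replicates.

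The peaks themselves scored much like the rest of the list. The median score of the 134 peaks was 218.70 with quartiles of 124.7 and 352.0, and 69 of them (51.5%) were above-median, against 50% of all peaks. In the upper quartile lay 34 (25.4%), against 25% of all peaks. The share of genes with a peak was thus above that of all coding genes, whereas the scores were close to those of the list. Scores over 1000 were reached by 3 of the 134 peaks, named Kcnab1, Kcnc1 and Kcnc4, against 1.11% of all peaks.

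The subfamilies covered a range of shares. Of the voltage-gated pore genes, 39 of 40 had a linked peak (97.5%, interval 86.8 to 99.9%), and Kcnd1 was the gene without one. Tandem pore genes had 11 of 14 (78.6%, interval 49.2 to 95.3%) and calcium- and sodium-activated genes 6 of 8 (75%, interval 34.9 to 96.8%). Inward rectifier genes and auxiliary subunit genes each had 10 of 15 (66.7%, interval 38.4 to 88.2%). The interval of the voltage-gated genes overlapped that of each other subfamily, and the lower bounds of the other 4 subfamilies reached below the 55.4% of all coding genes.

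The order was similar for above-median peaks. They were linked to 32 of 40 voltage-gated genes (80%, interval 64.4 to 90.9%), 8 of 14 tandem pore genes (57.1%), 4 of 8 calcium- and sodium-activated genes (50%), 6 of 15 inward rectifier genes (40%) and 5 of 15 auxiliary genes (33.3%). The share of auxiliary genes was below the 35.4% of all coding genes. Upper-quartile peaks were linked to 19 voltage-gated genes (47.5%) and to 1 inward rectifier gene (6.67%), against 19.2% of coding genes.

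**Figure D1:**
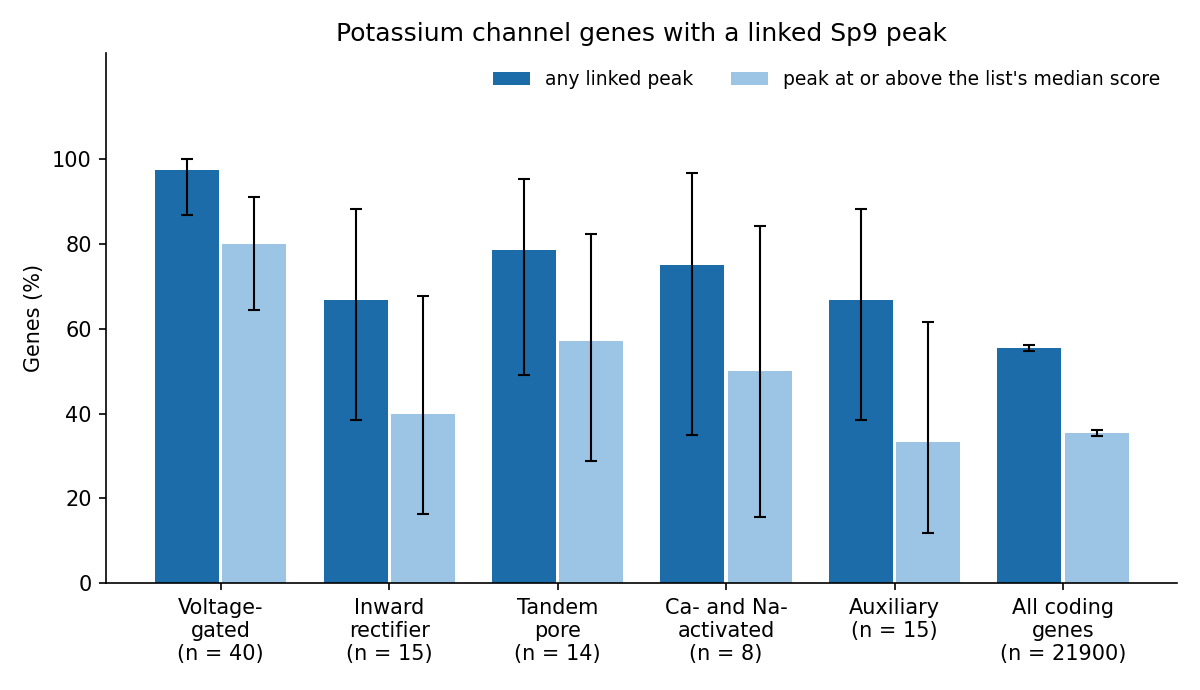
Share of genes (%) with any linked Sp9 peak (dark bars) and with a peak at or above the list's median score (light bars) in 5 potassium channel subfamilies and in all coding genes; lines are exact 95% intervals over genes. Voltage-gated genes stand at 97.5% and 80%, and all coding genes at 55.4% and 35.4%.

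Median scores followed a different order. The 18 tandem pore peaks had a median of 260.7 and the 73 voltage-gated peaks one of 240.80. The 14 auxiliary peaks had a median of 202.5, the 14 calcium- and sodium-activated peaks 173.9 and the 15 inward rectifier peaks 138.49. The ranges overlapped broadly, from 80.92 to 1075.38 for voltage-gated and from 81.45 to 425.71 for inward rectifier peaks.

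**Figure D2:**
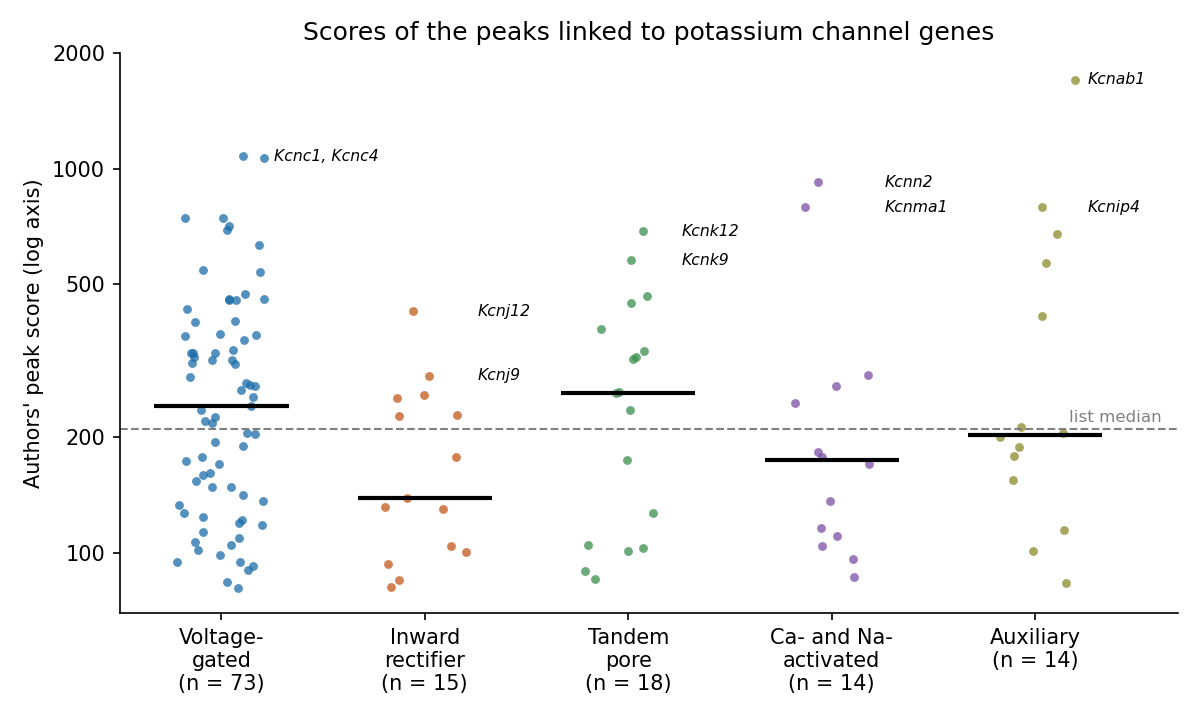
The authors' peak score (log axis) of each of the 134 peaks by subfamily; each point is a peak, black bars are subfamily medians and the dashed line is the median of the whole list, 210.06. Every subfamily has points on both sides of the line, and the highest inward rectifier peak, 425.71, lies below the highest of each other subfamily.

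Among the voltage-gated genes, the Shaw-related channels of the Kcnc group, which repolarise fast-spiking neurons, had the highest scores. The single Kcnc1 peak, on chromosome 7 from 53651441 to 53653849, scored 1075.38, above 99.1% of all peaks. Kcnc4 had 1 peak of 1066.30 on chromosome 3 from 107260688 to 107263625. Both peaks were more than 2000 bp wide. Kcnc2 had 3 peaks within 155 kb, with scores of 118.13, 177.06 and 400.69 in order of position, of which 1 was above-median.

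The Kcnb genes encode delayed rectifiers of the soma and proximal dendrites. Kcnb2 had 2 peaks, of 225.52 and 455.25, both above-median.

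All 8 Shaker-related Kcna genes had a linked peak, against 55.4% of coding genes, and the top scores of these 8 covered a wide range. Kcna3, a channel of mitral cells and of lymphocytes, had 1 peak of 742.04 on chromosome 3 from 106838644 to 106840122. Kcna2, an axonal channel, had 1 of 456.30, and Kcna10, known from the inner ear, had 1 of 90.35, the lowest top score of any voltage-gated gene. These 3 genes followed each other in the list, with gaps of 64.0 and 56.7 kb between their peaks and no other peak between them. A similar run on chromosome 6 held Kcna5, Kcna1 and Kcna6. Kcna5, an atrial and vascular channel, had 3 peaks of 98.65, 331.15 and 121.55. Kcna1, an axonal channel whose loss gives episodic ataxia and seizures, had 2 low peaks of 127.08 and 101.71 separated by 221 bp, and Kcna6 had 1 of 429.92. Kcna4 (193.69) and the muscle channel Kcna7 (317.81) had 1 peak each.

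Of the Shal-related Kcnd genes, which carry the rapidly inactivating A-type current of dendrites, Kcnd2 had 4 peaks spread over 602 kb of chromosome 6. Their scores were 113.23, 220.49, 369.34 and 707.63, so that each peak scored higher than the one before it in coordinate order. Kcnd3 had 1 peak of 170.06 and Kcnd1 none.

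The 5 Kcnq genes all had an above-median peak, against 35.4% of coding genes. Kcnq3, a subunit of the M current channels that limit repetitive firing, had 1 peak of 331.51. Kcnq5, another M current subunit, had 1 of 693.34 on chromosome 1 from 21950651 to 21952805. Kcnq1, the slow delayed rectifier of the heart, had 2 (216.91 and 104.92), the lowest top score of the group.

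The 8 Kcnh genes, the ether-a-go-go family, had 22 peaks in all, or 2.75 per gene, the most of any gene group. Kcnh8 had 6 peaks over 803 kb of chromosome 17, more than any other potassium channel gene, and their scores ran from 84.05 to 285.93. Kcnh2, which repolarises the heart and is also active in neurons, had 5 peaks within 28.4 kb of chromosome 5, from 140.99 to 309.44. Kcnh7 had 3 (253.66, 148.06 and 370.46) over 234 kb. The highest single score was that of Kcnh5, with peaks of 470.15 and 271.50. Kcnh1 had 337.30 and 159.26, Kcnh3 had 80.92 and 273.77, Kcnh4 had 330.61 and Kcnh6 had 173.64. The group thus held many peaks of moderate score, with an upper-quartile peak in 2 of 8 genes, against 19.2% of coding genes.

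Electrically silent subunits form no channel alone but change Kcnb channels when they join them. All 10 (Kcnf1, Kcng1 to Kcng4, Kcns1 to Kcns3, Kcnv1 and Kcnv2) had a linked peak, against 55.4% of coding genes. An above-median one was linked to 8 (80%), against 35.4% of coding genes and the same 80% of all voltage-gated genes. Kcns1 led with 632.53, followed by Kcng3 with 539.11, Kcnv1 with 456.76 and Kcng2 with 453.98. The top scores of the others were 398.54 for Kcng4, 316.77 for Kcns3, 275.71 for Kcnf1 and 204.55 for Kcnv2. Kcng1 had 3 peaks, none above-median (133.31, 94.37 and 160.86). Kcns2 had 3 peaks, of 92.53, 310.86 and 135.97. Left without these genes, the voltage-gated share was 29 of 30 (96.7%).

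**Figure D3:**
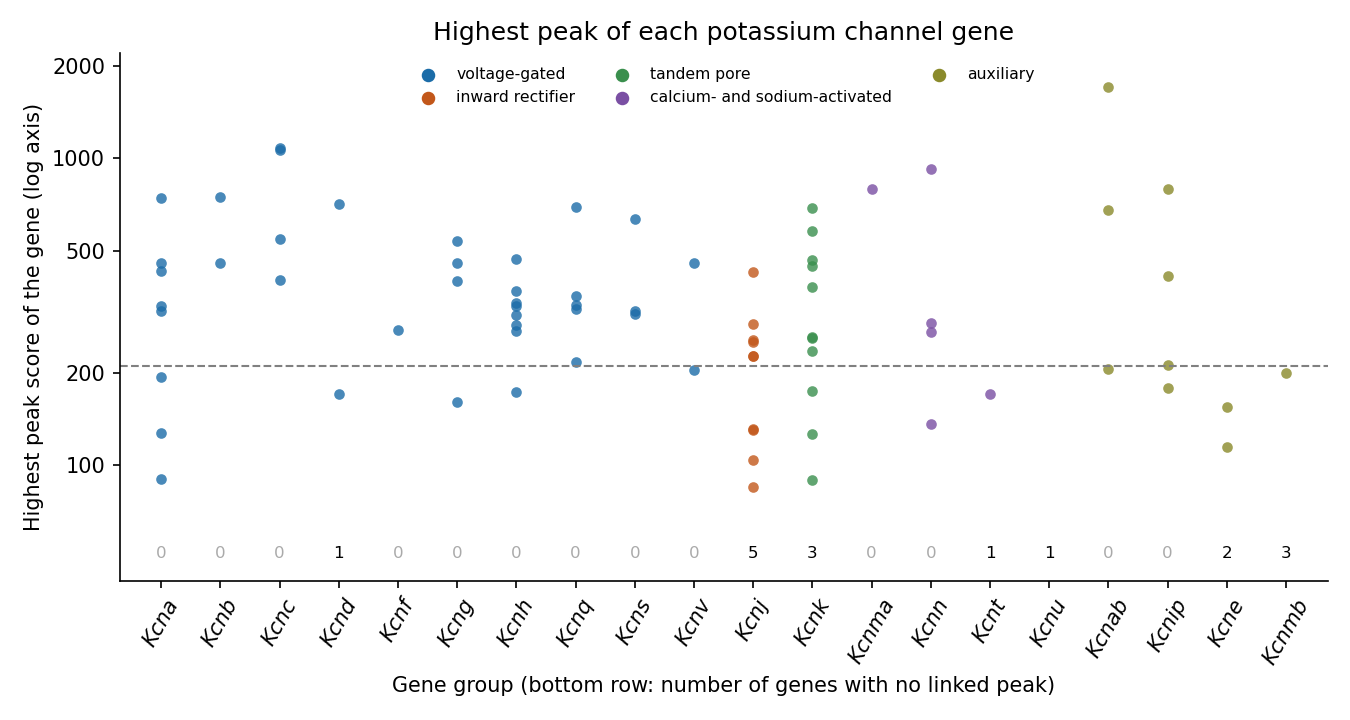
Highest peak score of each potassium channel gene (log axis) by gene group, coloured by subfamily; each point is a gene, the dashed line is the list's median of 210.06, and the bottom row counts genes with no linked peak. Kcnc, Kcnb and Kcnq genes all lie above the line, while 5 Kcnj, 3 Kcnk and 3 Kcnmb genes have no peak.

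Among the inward rectifiers, the strong rectifiers that hold the resting potential differed widely. Kcnj12 had 2 peaks, one of 425.71 on chromosome 11 from 60835454 to 60836779, the highest of the subfamily, and another of 93.19. Kcnj4, found in forebrain neurons, had 2 (256.60 and 177.78) and Kcnj14 had 1 (252.27). Kcnj2 had 1 narrow peak of 452 bp and 84.69, above 2.86% of all peaks.

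All 3 genes for the neuronal G protein-gated channels, which open on activation of inhibitory receptors, had a linked peak, against 55.4% of coding genes. Kcnj5, the atrial member, had none. Kcnj9 had 1 peak of 289.20, Kcnj3 had 3 of 227.57, 81.45 and 138.49 over 283 kb, and Kcnj6 had 2 of 100.14 and 130.17. The peak of Kcnj9 was followed after 13.7 kb by that of Kcnj10, the potassium-buffering channel of astrocytes, with 131.64. Kcnj16, which joins Kcnj10 in glia and epithelia, had none.

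Of the pore subunits of ATP-sensitive channels, Kcnj8, known from smooth muscle and pericytes, had 1 peak (226.97) and Kcnj11, known from neurons and pancreatic beta cells, had none. The epithelial channel genes Kcnj13 and Kcnj15 had none, while the kidney channel gene Kcnj1 had 1 low peak (103.88). No Kcnj gene had more than 3 peaks, and Kcnj12 alone had an upper-quartile peak.

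Tandem pore genes were led by Kcnk12, a member of the halothane-inhibited channel pair, with 3 peaks over 53.4 kb of chromosome 17 that scored 323.41, 102.51 and 686.08. The highest lay from 88195987 to 88198347. Its relative Kcnk13, known from microglia, had 1 peak of 234.98 that was also more than 2000 bp wide.

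The acid-sensitive channels Kcnk9 and Kcnk3 set the resting potential of many neurons. Kcnk9 had 1 peak of 577.97 on chromosome 15 from 72376413 to 72378498 and Kcnk3 had none. Kcnk15, a related subunit that gives no current alone, had 3 peaks of 318.57, 381.60 and 100.71 within 10.9 kb.

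Kcnk1, a weakly conducting channel found in brain and kidney, had 3 peaks of 465.61, 104.91 and 334.01. Of the mechanically and lipid-gated channels, Kcnk4 had 1 peak of 445.36, Kcnk10 had 1 of 260.23 and Kcnk2 had 2 of 85.58 and 174.27. Kcnk6 had 1 of 261.20. The lowest top scores were those of Kcnk5 (126.84) and Kcnk7 (89.59). Kcnk16, a channel of the pancreas, and Kcnk18, a channel of sensory neurons, had none.

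Among the calcium- and sodium-activated genes, the highest peaks belonged to Kcnn2 and Kcnma1, whose channels carry the afterhyperpolarisation. Kcnn2, a small conductance channel, had peaks of 182.87 and 920.38, the higher on chromosome 18 from 45717868 to 45720360, and Kcnma1, the large conductance channel, had 1 of 793.36 on chromosome 14 from 24822412 to 24824748. Kcnn1 had 5 peaks within 12.0 kb of chromosome 8, of 96.16, 104.00, 116.07, 289.71 and 177.84, of which 1 was above-median. Kcnn4, known from blood cells and epithelia, had 2 (245.83 and 270.80), and Kcnn3 had 1 (136.42). Of the sodium-activated channels, Kcnt1 had 3 peaks, all below the list's median (170.04, 110.49 and 86.54), and Kcnt2 had none. The sperm channel gene Kcnu1 had none.

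Auxiliary subunit genes held the highest single peak of the family. Kcnab1, a cytosolic beta subunit that speeds inactivation of Shaker channels, had 1 peak of 1702.02 on chromosome 3 from 64999171 to 65001666, above 99.8% of all peaks. Kcnab2 had 2, of 83.27 and 676.16, and Kcnab3 had 1 of 204.98.

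The Kcnip genes encode calcium-binding partners of the Kcnd channels, and all 4 had a linked peak, against 55.4% of coding genes. Kcnip4 had 3 peaks over 144 kb of chromosome 5, of 188.00, 567.67 and 792.66, all but the lowest in the upper quartile. Kcnip3, which is also described as a repressor of transcription, had 1 of 414.36, Kcnip1 had 1 of 212.54 and Kcnip2 had 1 of 178.23.

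The Kcne and Kcnmb genes encode small membrane subunits. None of the 8 that the name rule takes in had an above-median peak, against 35.4% of coding genes. Kcne1l, which the rule leaves out, had a peak of 211.28, just above the median. Of the 4 Kcne genes, Kcne4 had 2 peaks (154.42 and 100.86) and Kcne2 had 1 (114.40), while Kcne1 and Kcne3 had none. Of the 4 Kcnmb genes, which modulate Kcnma1 channels, Kcnmb4, the form found in neurons, had 1 peak of 200.04. Kcnmb1, the smooth muscle form, and Kcnmb2 and Kcnmb3 had none. No test separates these small groups.

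Where a potassium channel gene had several peaks, these followed each other in the list. How the authors chose gene names is not stated, so this order may follow from the naming. Such an order was not counted for all genes of the list. The 34 genes with 2 or more peaks held 92 of the 134 peaks, and in all 34 no peak with another name lay between them. Their spans ran from 1.76 kb for Kcnh3 to 803 kb for Kcnh8, with a median of 53.2 kb. In 9 genes the span was under 20 kb, in 9 it was 20 to 100 kb and in 16 it was 100 kb or more. Several linked peaks therefore lie far apart, and which of them act on the named gene was not tested. Of the 134 peaks, 22 (16.4%) had a peak of the same name within 5 kb, against 15.5% of all peaks. In runs of 5 or more peaks with gaps under 10 kb lay 7 (5.22%), against 5.35% of all peaks, and 5 of these were the Kcnn1 peaks.

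A few peaks had a peak of another name close by. Such a neighbour lay within 5 kb of 5 of the 134 peaks (3.73%), against 4.86% of all peaks. How certain any gene name is cannot be read from the list. The last Kcnn1 peak (177.84) ended 728 bp before a peak named Ccdc124, that of Kcnh4 (330.61) 1426 bp before one named Hcrt, the gene of the neuropeptide hypocretin, and that of Kcnk6 (261.20) 4954 bp before one named Yif1b. The peak of Kcnk7 (89.59) began 3871 bp after one named Map3k11, and that of Kcnj14 (252.27) 4490 bp after one named Cyth2.

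**Figure D4:**
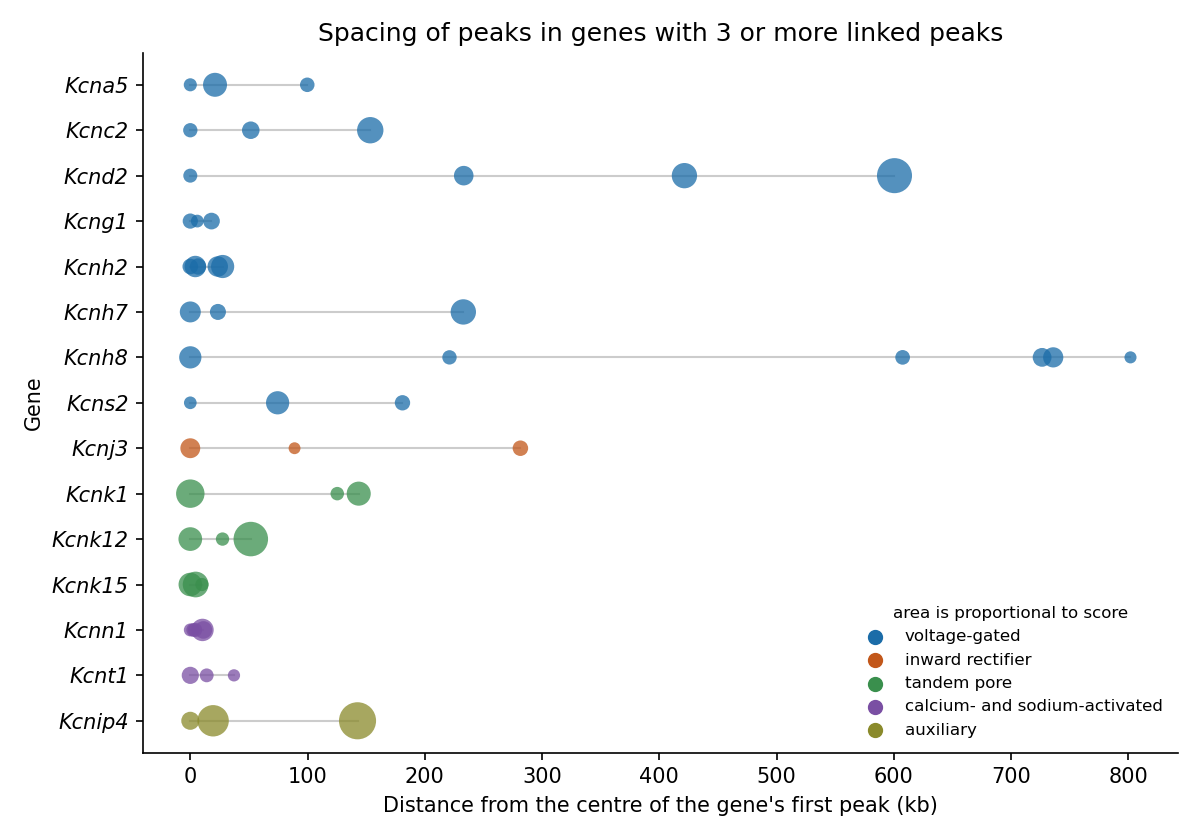
Positions of linked peaks in 15 of the 16 genes with 3 or more of them, as the distance in kb from the centre of the gene's first peak in coordinate order; circle area is proportional to the score. Peaks of Kcnn1 and Kcnk15 lie within 12.0 kb, while those of Kcnd2 and Kcnh8 are spread over 602 and 803 kb.

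Genes with 3 or more peaks numbered 16 of 92 (against 5.62% of coding genes). They were 9 of 40 voltage-gated, 3 of 14 tandem pore and 2 of 8 calcium- and sodium-activated genes. Inward rectifier and auxiliary genes had 1 of 15 each. The peaks lay on 18 chromosomes and none on unplaced sequence. Chromosome 2 held the most, 21 peaks of 10 genes, or 1.42% of the peaks on it.

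Wide peaks were found in every subfamily except the inward rectifiers. Peaks of 2000 bp or more numbered 11 of 134 (8.21%), against 3.63% of all peaks. Among them were the peaks of Kcnc1, Kcnc4, Kcng3, Kcnq5, Kcnk9, Kcnk12, Kcnk13, Kcnma1, Kcnn2 and Kcnab1, and Kcnk13 (234.98) was the lowest in score. The median width was 1046 bp, against 986 bp in the whole list. Across the 134 peaks width and score had a Spearman correlation of 0.754 and across the whole list one of 0.745, given as descriptions.

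GC boxes were found before the start sites of a larger share of genes with a linked peak than of genes without one, among potassium channel genes and among all coding genes. Of the 92 genes, 67 had a window in the sequence table. At least 1 GC box was present in 37 of 56 such genes with a linked peak (66.1%), against 63.7% of all coding genes with a linked peak. Among genes without a linked peak it was present in 3 of 11 (27.3%), against 23.8% of all coding genes without one. The share over these 11 genes is imprecise, and no interval was computed for it. Over all coding genes the share was 45.8%. Counted per window, the shares were 49.4% for potassium channel genes with a linked peak, against 57.3% for all coding genes with one, and 20% for potassium channel genes without a linked peak, against 22.8% for all coding genes without one. In both cases the order of potassium channel and all coding genes turned round. The GC content of the windows moved with the same split: its median was 60.4% with and 51.2% without a linked peak in potassium channel genes, and 60.4% and 49.2% in all coding genes, and its part in the GC box shares was not tested. Genes differ in their number of windows.

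High scores and many GC boxes did not go together in all windows shown. Kcnc1 and Kcnma1 had 3 matches each, while Kcnj12, the highest-scoring inward rectifier gene, had 0. Kcnab1 had 2 in its first window, the one shown, and 0 in windows 2 and 3. Kcnmb4 had 4 matches, the most in any family window, with a peak of 200.04, and Kcnmb1, without a peak, had 0. Kcng3 and Kcnh7 also had 4 in their windows. The median per family window was 0 both with and without a linked peak, so Kcnmb4 and Kcnmb1 are not a typical pair. Kcnj5, which had no linked peak, had 2. A match is a run of letters and not a bound site.

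**Figure D5:**
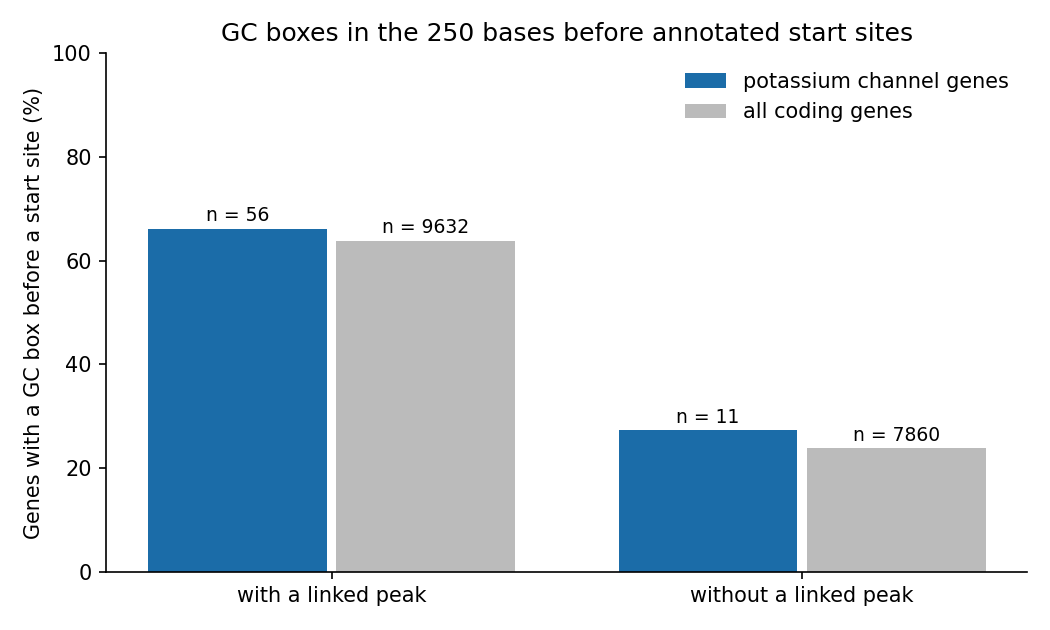
Share of genes (%) with at least 1 GGGCGG or CCGCCC in the 250 bases before an annotated start site, for genes with and without a linked Sp9 peak; blue bars are potassium channel genes and grey bars all coding genes, with the number of genes above each bar. The shares are 66.1% and 63.7% with a peak, and 27.3% and 23.8% without.

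Proteins that partner potassium channels without carrying a Kcn name had linked peaks in most cases. In a list of 21 such genes, 17 had a linked peak (81.0%), against 55.4% of coding genes. An above-median peak was linked to 12 (57.1%, interval 34.0 to 78.2%), against 35.4% of coding genes, which lies inside that interval. Of the cyclic nucleotide-gated pacemaker channels, Hcn4 had a highest score of 942.62, Hcn2 one of 426.94 and Hcn3 one of 355.67. Of the Kcnd partners, Dpp6 had 5 peaks with a highest score of 344.98 and Dpp10 had 3 with 283.65. Cntnap2, which clusters Kcna channels along axons, had 7 peaks with a highest score of 287.11, and the scaffold genes Dlg1 (346.98), Dlg2 (541.62) and Dlg3 (281.35) scored higher than Dlg4 (80.73). Abcc8, the sulfonylurea receptor that joins Kcnj11, had 1 peak of 105.71, and Abcc9 had none. Lgi1, Lrrc52 and Lrrc55 also had none.

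In the share of genes with a peak and in peaks per gene, potassium channel genes lay between 2 other families of excitability genes. Their median peak score was close to that of the receptor genes. The 82.6% of potassium channel genes with a linked peak stood against 28 of 40 voltage-gated sodium and calcium channel genes (70%, interval 53.5 to 83.4%) and 41 of 47 GABA and glutamate receptor genes (87.2%, interval 74.3 to 95.2%). Peaks per gene were 1.46 for potassium channels, 1.32 for sodium and calcium channels and 2.06 for receptors. The median peak scores were 218.70 for potassium channels, 148.41 for sodium and calcium channels and 214.61 for receptors. The median of the highest score per linked gene was 313.8, 305.1 and 346.8 in the same order. An above-median peak was linked to 59.8%, 45% and 68.1% of the genes. The intervals of the shares overlap, and the differences were not tested.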

How the data were processed

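The authors deposited 1 list of peaks shared by the 2 Sp9 immunoprecipitation libraries, with a chromosome, start, end, peak score and gene name per peak; this score is the authors' own and names no library. Per the submitters' processing notes, Bowtie2 2.2.4, MACS 1.4.2 and mm9 were used, with no roles or settings; no source used here gives the rule for a shared peak. The deposited starts and ends are other values, positions in bases, and whether starts count from 0 is not stated. Library depth is unknown.

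Gene names were matched to a RefSeq table (GRCm38.p6) by symbol and then by a synonym of 1 gene; all 76 member names matched by symbol. Shares over the 92 family genes and 21900 coding genes, exact Clopper-Pearson intervals at 95%, medians and GC box counts were computed in Python 3.11.15 with pandas 2.3.3 and scipy 1.17.1. No test was run, because there is 1 value per peak. Counting was checked on simulated links, which returned 200 of 200 genes. Named with values were the 6 highest genes of each subfamily, its lowest, and genes with 3 or more peaks; others were chosen after their values were seen. Some genes that this rule would name are left out of the text. Members and lists were chosen with earlier results of these data known. Alternatives were score thresholds, symbols only, merged peaks, no dense runs, another background and other subfamily limits.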

Additional observations from a re-analysis of the deposited data

How the results depend on the processing

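Of 46 values under the alternatives, 13 moved past the 95% interval of the deposited value and 33 did not. Of these 33, 15 could not move by construction (all names match by symbol, merging keeps every name, another background leaves the members unchanged). Among the remaining 18, the shares of voltage-gated, inward rectifier and auxiliary genes without dense runs could not move either. None of their peaks lay in such a run or on unplaced sequence. With above-median peaks only (69 of the 134 peaks), the share of linked genes was 59.8% for all potassium channel genes, against 35.4% of coding genes, 80% for voltage-gated and 33.3% for auxiliary genes, with 0.75 peaks per gene and a median score of 337.30. With upper-quartile peaks only (34 peaks), it was 33.7% against 19.2%, and 47.5% for voltage-gated, 6.67% for inward rectifier, 35.7% for tandem pore, 25% for calcium- and sodium-activated and 26.7% for auxiliary genes, with 0.370 peaks per gene and a median score of 504.6. Both thresholds remove peaks by construction. Merging peaks of 1 name within 5 kb (121 peaks, counted for peaks per gene and median score) and leaving out dense runs and unplaced sequence (127 peaks) moved none past its interval; without dense runs, Kcnn1, Kcnk4 and Kcnk7 had no peak left, which gave 5 of 8 calcium- and sodium-activated and 9 of 14 tandem pore genes. Without Olfr, Vmn, Gm and Rik genes the background rose to 62.3%. Adding Kcne1l, chosen after seeing the data, gave 77 of 93. Leaving out a library and another overlap were not run, because the list holds no value per library. No paired analysis was possible because the result comes from no test and the list carries no library's own values. Since depth is unknown, a gene with no peak may only have missed detection.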

Other observations

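Names outside the rule held further peaks at potassium channel loci. A peak of 597.20 named Kcnd3os, a non-coding RNA gene, lay on chromosome 3 from 105255012 to 105256429, and the next peak before it, 114 kb away, was the lower one of Kcnd3 (170.06). Kcne1l, an auxiliary subunit gene on chromosome X, had 1 above-median peak of 211.28 from 138739794 to 138741027. No row of the list carried the name Kcnq1ot1, the non-coding RNA of the imprinted Kcnq1 locus, or Kcnrg, a gene named as a regulator of potassium channels.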
